A study of Homo sapiens with 29 samples.

Results

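Day 4 was compared with day 2 in 4 induction arms of a heart muscle differentiation, an interval in which the cells were exposed to a WNT inhibitor. The comparison uses 8 of the 29 arrays of the series, 4 a day, and pairs each arm with itself. It takes in every gene whose probe was detected, at a detection p under 0.01, on at least 3 of the 8 arrays, which holds for 11126 of the 20046 genes with a named probe. The cells were HuES6, an established human embryonic stem cell line, kept undifferentiated in a defined medium and then replated on Matrigel in a medium free of serum and serum albumin.

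All cultures received insulin on day 0, which was withdrawn from day 1 on. The arm called FBW was given 10 ng/ml FGF2, 1 ng/ml BMP4 and 1 uM of a WNT-activating compound that the labels call CHIR00921, all on day 0. FB lacked the WNT activator, BW lacked FGF2 and FW lacked BMP4. One treatment text covers all samples, and it has IWP-2, an inhibitor of WNT release, present at 2 uM on day 2 and again on day 3. No arm went without IWP-2, so the inhibitor and the passage of time cannot be told apart. The labels do not say whether RNA of day 2 was taken before or after the first dose. Each arm had 1 array on each day, and the arms are different treatments, so that a p-value measures how steady a change was over the 4 arms and not how well it repeats in separate differentiations.

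WNT ligands carry a lipid that the acyltransferase PORCN attaches and the carrier WLS brings to the cell surface. IWP-2 blocks PORCN, so it acts on the release of ligands made by the cells. At the receptor, frizzled proteins with LRP co-receptors stabilise beta-catenin, which works with TCF and LEF factors on target genes, among them the feedback inhibitor AXIN2 and, in the primitive streak, the mesoderm regulator TBXT. In heart differentiation of stem cells an early WNT signal makes mesoderm and its later inhibition favours cardiac progenitors.

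Values are normalised log2 signals, where 1 unit is a 2-fold difference, and those of the 4 arms stand in the order FBW, FB, BW and FW throughout. Signals of different probes are not compared, since a probe's brightness depends on its sequence. The 8 arrays detected between 16435 and 17924 of 47323 probes, and their number limits the precision. Along the first principal component, with 49.2% of the variance of the genes tested, FBW and BW lay apart from FB and FW on both days. The second, with 25.8%, placed each arm higher on day 4 than on day 2. The most alike of the 29 arrays correlated at 0.9923, and all arrays were kept. Among the cell type markers, both neuroectoderm markers (PAX6, SOX1) and both skeletal muscle markers (MYOD1, MYF5) were detected on 0 of the 8 arrays, as were CDH5 and PECAM1 of endothelium. CD34, the other endothelium marker, was detected in 0 arms on day 2 and in 3 on day 4. POU5F1, LIN28A and DNMT3B of undifferentiated cells were detected on all 8 arrays. NANOG and PRDM14 were detected in 4 arms on day 2 and in 3 on day 4, and SOX2 in 3 and then in 4.

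A total of 83 genes changed between day 2 and day 4, of which 50 rose and 33 fell. These are 0.746%, 0.449% and 0.297% of the genes tested with limma at a Benjamini-Hochberg adjusted p under 0.05. The genes that rose include the transcription factors ISL1, MEIS2 and GATA3 and the BMP pathway inhibitor SMAD6, and those that fell include the FGF-responsive factor ETV5, the WNT target AXIN2 and the glycolytic enzymes LDHA, ALDOC and ENO1. Of the 83, 4 were detected in no arm on 1 of the days and so entered the test only through the day where they are high. These are GATA2, APOB, SORBS2 and HHLA2. Some others would not have passed the filter on their dimmer day either, so their calls share this limit. MEIS2, PRSS23 and GATA3 were detected on that day in 1 arm, and CDA, CD1D, BCL6B, FNDC5, FHOD3 and CCDC92 in 2. All 83 moved the same way in each of the 4 arms, and for 44 of them the day 2 and day 4 values did not overlap at all. Non-overlapping days were found for 874 of the 11126 genes, or 7.86%. Of the genes called, 62 changed at least 2-fold on average (38 up, 24 down). Over all genes tested the median change was -0.01, and 2270 genes (20.4%) had an unadjusted p under 0.05. Leaving out FB, BW or FW left 1, 2 and 0 calls, leaving out FBW gave 185, and treating the arms as plain repeats without pairing gave 0.

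AXIN2, the scaffold of the beta-catenin destruction complex and itself a WNT target, read 9.05, 8.71, 9.09 and 8.95 on day 2 and 8.04, 7.98, 7.52 and 7.69 on day 4. The days did not overlap, and the 4 arms lay within a narrow range on each. AXIN2 fell by 1.14 ± 0.16 (SE, n = 4 arms), which is 2.2-fold, with an adjusted p of 0.0467. The arms given the WNT activator had read higher still on day 1, at 9.8 in FBW, 10.22 in BW and 9.35 in FW, while FB stood at 8.51.

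The transcription factor SP5, which is induced directly by beta-catenin, read 9.7, 7.39, 10.31 and 5.18 on day 2 and 5.61, 4.34, 6.08 and 4.51 on day 4. It was lower in every arm but by very different amounts, and on day 4 it was detected only in FBW and BW. The mean difference of -3.01 ± 0.59 did not pass the test (adjusted p = 0.0853). In FW the level had already gone from 9.33 on day 1 to 5.18 on day 2. Its relative SP8 read 9.27, 7.29, 9.89 and 7.54 and then 5.35, 6.32, 7.01 and 6.05, with no overlap and a difference of -2.32 ± 0.48 (adjusted p = 0.0908). The secreted WNT inhibitor DKK1, another direct target, read 8.73, 5.97, 8.23 and 5.37 and then 5.65, 5.58, 5.41 and 5.3. Its difference was large in FBW and BW only (adjusted p = 0.202).

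TBXT, the T-box factor of the primitive streak, read 12.31, 7.42 and 11.32 in FBW, FB and BW on day 2, was not detected in FW, and was detected in no arm on day 4. It was at least 14-fold lower on day 4, though with an adjusted p of 0.134. Such a bound sets the brighter day's mean against the lowest signal that counted as detected on each dim array, or the probe's own where higher. DKK4, a second Dickkopf inhibitor, was likewise detected in FBW, FB and BW on day 2 (8.11, 7.33 and 10.8) and in no arm on day 4, at least 5.95-fold lower (adjusted p = 0.132).

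**Figure D1:**
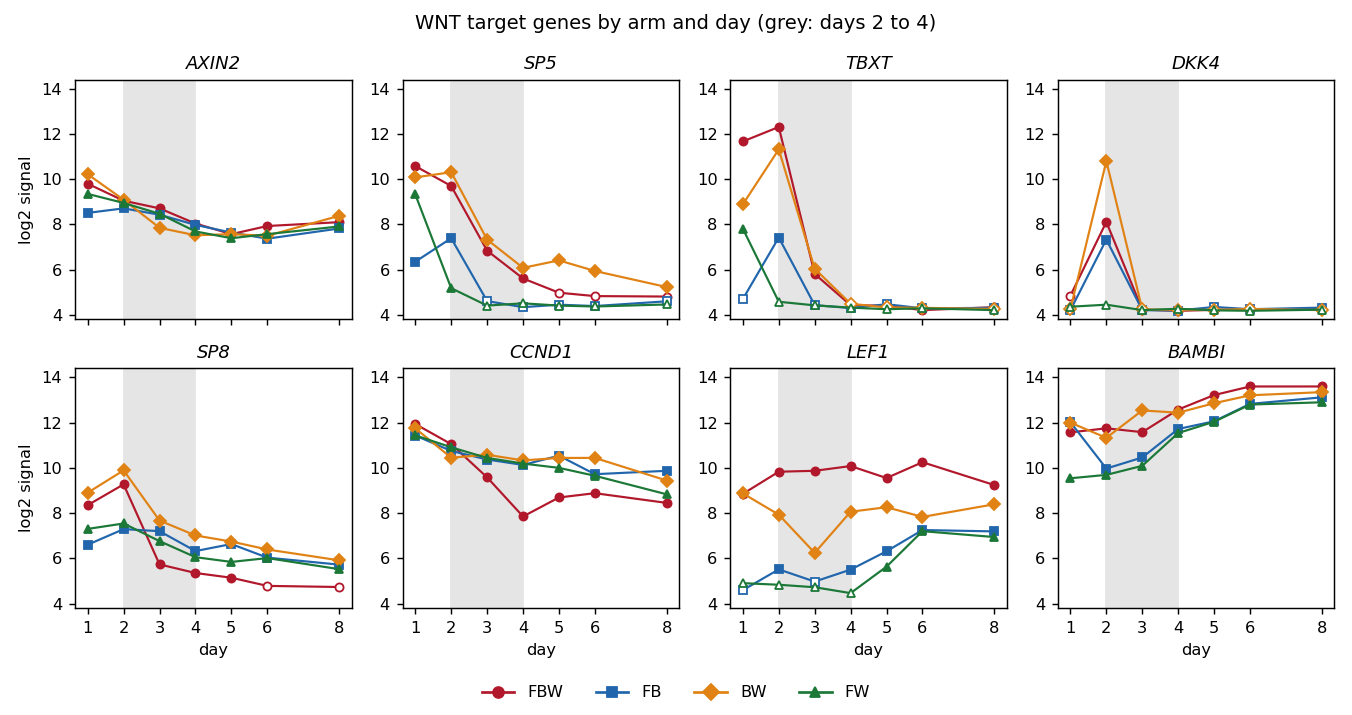
Normalised log2 signal (y axis) of 8 WNT target genes by day (x axis, days 1 to 8), 1 array per point and 1 line per arm, with days 2 to 4 in grey and open symbols where the probe was not detected. AXIN2 read from 8.71 to 9.09 on day 2 and from 7.52 to 8.04 on day 4, TBXT and DKK4 were detected in no arm on day 4, and BAMBI ran the other way.

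Promoter sequences of 3 WNT targets that were lower in all 4 arms show how the TCF and LEF core motif CTTTGA lies in them. They are RefSeq sequences of GRCh38.p14, from 250 bases before to 50 bases after a gene's start, read along the gene's strand, with CTTTGA or its reverse complement TCAAAG in capitals. SP5 lies on the plus strand at chr2:170715087-170715386, DKK1 on the plus strand at chr10:52314031-52314330 and SP8 on the minus strand at chr7:20786837-20787136.
SP5: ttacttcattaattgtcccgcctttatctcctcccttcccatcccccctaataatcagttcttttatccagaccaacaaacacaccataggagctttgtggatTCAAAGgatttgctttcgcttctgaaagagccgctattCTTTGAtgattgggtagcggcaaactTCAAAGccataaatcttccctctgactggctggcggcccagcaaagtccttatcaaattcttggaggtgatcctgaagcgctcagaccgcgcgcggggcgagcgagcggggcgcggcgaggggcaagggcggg
DKK1: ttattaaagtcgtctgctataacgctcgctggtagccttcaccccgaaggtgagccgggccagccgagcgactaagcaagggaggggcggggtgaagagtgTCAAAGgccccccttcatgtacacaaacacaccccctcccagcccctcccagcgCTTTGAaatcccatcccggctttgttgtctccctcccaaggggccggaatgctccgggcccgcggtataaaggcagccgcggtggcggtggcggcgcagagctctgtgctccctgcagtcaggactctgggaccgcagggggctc
SP8: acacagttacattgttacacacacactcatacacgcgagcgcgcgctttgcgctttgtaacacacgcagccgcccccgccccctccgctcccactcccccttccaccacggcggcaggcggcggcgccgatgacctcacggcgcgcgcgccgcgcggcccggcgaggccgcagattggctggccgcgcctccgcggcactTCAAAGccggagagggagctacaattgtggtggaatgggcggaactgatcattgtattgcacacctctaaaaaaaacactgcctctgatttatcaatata
SP5 holds 3 copies of the motif, DKK1 holds 2 and SP8 holds 1. These 3 genes were picked by no set rule, and their changes did not pass the test. Of the 11 genes of the WNT target list that were lower in all 4 arms, 6 have entries in the table, with 7 windows, of which 4 hold the motif (57.1%). Among all 35116 windows the share is 12.9%. AXIN2, the member of the list that fell, has no entry. APCDD1 and NKD2 have no copy in their windows, and TBXT has 1 in the second of its windows. A match describes the letters alone and does not show that a factor bound there.

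As a group, the WNT feedback and target genes had a median change of -0.96, against -0.01 over all genes tested, and 11 of the 16 measured members were lower in all 4 arms (68.8%, against 16.6% of all genes). Of the 24 genes listed, 23 have a probe and 16 passed the detection filter. AXIN2 alone fell and BAMBI alone rose, while the other 14 did not pass the test. A gene that passed the filter through 1 day alone, as TBXT and DKK4 did, had to differ between the days, so the median is a description. BAMBI, a decoy receptor that restrains BMP and TGF-beta signalling and responds to both WNT and BMP, read 11.75, 9.97, 11.33 and 9.69 and then 12.58, 11.72, 12.44 and 11.54. It rose by 1.39 ± 0.18 (adjusted p = 0.0447). The stem cell receptor TNFRSF19 was also higher on day 4 in each arm, with no overlap (1.84 ± 0.3, adjusted p = 0.0604). The cell cycle gene CCND1 read 11.05, 10.75, 10.45 and 10.91 and then 7.85, 10.13, 10.33 and 10.19, low on day 4 in FBW (adjusted p = 0.256). LEF1 differed by 0 on average (adjusted p = 0.999), with 9.83 and 10.08 in FBW. ASCL2 was detected in all arms on day 2 and in none on day 4, at least 1.3-fold lower (adjusted p = 0.0771). The remaining members were NKD1 with -0.82, NKD2 with -0.93, APCDD1 with -0.99, ZNRF3 with -0.09 and FZD7 with 0.29, with adjusted p from 0.122 to 0.709.

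Among the ligands and their release, 6 of 25 listed genes were measured, and 0 were called in either direction by limma, with 3 at an unadjusted p under 0.05. WNT3A, a canonical ligand of the streak, read 10.24, 5.38, 8.42 and 4.38 on day 2 and 4.51, 4.78, 6.47 and 5.12 on day 4. It was high on day 2 in FBW and BW and was higher on day 4 in FW alone (adjusted p = 0.335). WNT3 read 8.63, 5.89, 8.03 and 5.01 and then 6.13, 4.91, 5.82 and 4.94 (adjusted p = 0.144). WNT5B was lower in all arms as well, by 1.58 on average (adjusted p = 0.165). Differences were -1.63 for RSPO3, a secreted amplifier of WNT receptors (adjusted p = 0.284), and -0.2 for the noncanonical ligand WNT5A (adjusted p = 0.817). WLS read 10.4, 6.76, 10.54 and 6.89 and then 11.24, 7.8, 11.26 and 6.78 (0.62 ± 0.2, adjusted p = 0.166). It was higher in FBW and BW than in FB and FW on both days. PORCN, the target of IWP-2, was not analysed here.

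Of the 9 measured secreted antagonists 0 were called by limma, with 7 at an unadjusted p under 0.05, against 20.4% of all genes. DKK4 and CER1 passed the filter through day 2 alone, so this count is a description. Their direction was mixed. SFRP1, which binds WNT ligands, read 8.1, 10.98, 6.68 and 10.78 and then 10.21, 12.28, 11.66 and 11.8, higher in each arm and most so in BW (2.35 ± 0.64, adjusted p = 0.134). FRZB was also higher in each arm, from 0.32 in FBW to 2.9 in FW (adjusted p = 0.106). SFRP2 read 9.12, 9.93, 11.3 and 9.27 and then 5.65, 8.78, 7.63 and 9.26, with FW nearly level (adjusted p = 0.158). CER1, an inhibitor of WNT, NODAL and BMP made in the early endoderm, went from detected in FBW, FB and BW to detected in none, at least 5.96-fold lower (adjusted p = 0.176). IGFBP4 differed by -0.8 (adjusted p = 0.0906), DKK3 by 0.12 and SOSTDC1 by -0.06.

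The receptors and transducers of the pathway had a median change of 0.24 over 25 measured members. In all 4 arms 10 of them were higher (40%, against 14.5% of all genes) and 0 were lower (0%, against 16.6%). The single call was the frizzled receptor FZD8, which read 5.27, 6.19, 5.47 and 6.0 and then 6.55, 7.59, 6.98 and 7.56. The days did not overlap. The 4 changes ran from 1.29 to 1.56, and FZD8 rose by 1.44 ± 0.12 (2.71-fold, adjusted p = 0.0275). CTNNB1, which encodes beta-catenin, differed by 0.24 ± 0.11 (adjusted p = 0.283).

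Several genes that respond to BMP rose. SMAD6, an inhibitory SMAD, read 8.42, 6.43, 7.3 and 6.06 on day 2 and 11.47, 8.36, 10.13 and 8.24 on day 4. Each arm was higher on day 4, and the levels ran in the same order of arms on both days. SMAD6 rose by 2.5 ± 0.21 (5.65-fold, adjusted p = 0.0275). ID3, an inhibitor of basic helix-loop-helix factors, read 10.48, 9.57, 10.55 and 8.91 and then 11.59, 10.69, 11.51 and 10.74, with no overlap. It rose by 1.26 ± 0.15 (adjusted p = 0.0416), including in FW, which was given no BMP4. ID4 rose by 1.44 ± 0.12, with changes from 1.32 to 1.59 over the arms (adjusted p = 0.0275).

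GATA3, a transcription factor of trophoblast, amnion and surface ectoderm, read 5.03, 4.57, 5.63 and 4.49 on day 2, where it was detected in BW alone. On day 4 it read 6.57, 7.56, 7.61 and 7.03 and was detected in all 4 arms. GATA3 rose by 2.26 ± 0.25 (4.79-fold, adjusted p = 0.0333). Its fold too depends on the background correction, and the alternatives gave differences from 1.04 to 2.53. GATA2, a factor of blood, endothelium and trophoblast, was detected in no arm on day 2 and in all on day 4 (7.04, 6.09, 6.01 and 5.75), at least 2.33-fold higher (adjusted p = 0.0291). Over the 16 measured genes of the 22 on the BMP list, 6 rose and 0 fell, while 0.449% of all genes tested rose and 0.297% fell. The median change was 1.48, and 11 were higher in all 4 arms (68.8%, against 14.5% of all genes). The other calls there are BAMBI and those just described. GATA2 entered through day 4 alone and GATA3 was detected on day 2 in BW alone, so these counts and the median are a description. ID2 missed the threshold (1.74 ± 0.27, adjusted p = 0.0577), and ID1 read 10.71 in FBW on day 2 and 10.62 on day 4 while the other arms were higher by 1.38 to 1.44. BMP4 itself was higher on day 4 in each arm, by 1.06 ± 0.28 on average (adjusted p = 0.13).

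ISL1, a LIM homeodomain factor of second heart field progenitors that amnion also expresses, had the largest rise among the genes called. It read 6.59, 5.12, 8.92 and 5.2 on day 2 and 11.41, 9.05, 10.99 and 8.01 on day 4. BW started highest and rose least, and FBW rose most. ISL1 rose by 3.4 ± 0.44 (10.6-fold, adjusted p = 0.0416). MEIS2, a TALE homeodomain cofactor of HOX and heart genes, was detected on day 2 in FBW alone at 6.9 and on day 4 in all arms at 10.76, 7.61, 7.81 and 6.34. MEIS2 rose by 3.01 ± 0.31 (8.04-fold, adjusted p = 0.0291). With most day 2 signals not detected, this fold depends on the background correction, and the alternatives gave differences from 1.74 to 3.36.

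SHISA2 belongs to the Shisa family, whose founding member in Xenopus holds back WNT and FGF receptors in the endoplasmic reticulum. It read 7.47, 8.6, 8.97 and 7.36 and then 10.12, 11.38, 10.67 and 10.06. The days did not overlap, and SHISA2 rose by 2.46 ± 0.2 (adjusted p = 0.0275). CADM1, a cell adhesion molecule, read 7.46, 7.24, 8.05 and 6.72 and then 10.46, 8.8, 10.1 and 8.34, a rise of 2.05 ± 0.25. PRSS23, a secreted serine protease, was detected on day 2 in BW alone and on day 4 in all arms at 6.64, 6.87, 7.39 and 6.61, a rise of 1.9 ± 0.13 (adjusted p = 0.0228). The other rises named for their size were FNDC5, the precursor of irisin (1.88 ± 0.25), the scaffold protein AHNAK (1.88 ± 0.18, with 0.42 at another probe), the ephrin ligand EFNA1 (1.79 ± 0.24, with 0.97 at another probe), the membrane repair protein MYOF (1.78 ± 0.2, with 1.06 and 1.7 at others) and the glypican GPC3 (1.71 ± 0.22). The steadiest rises by p-value also took in SERTAD2, a transcriptional coregulator (1.08 ± 0.09).

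**Figure D2:**
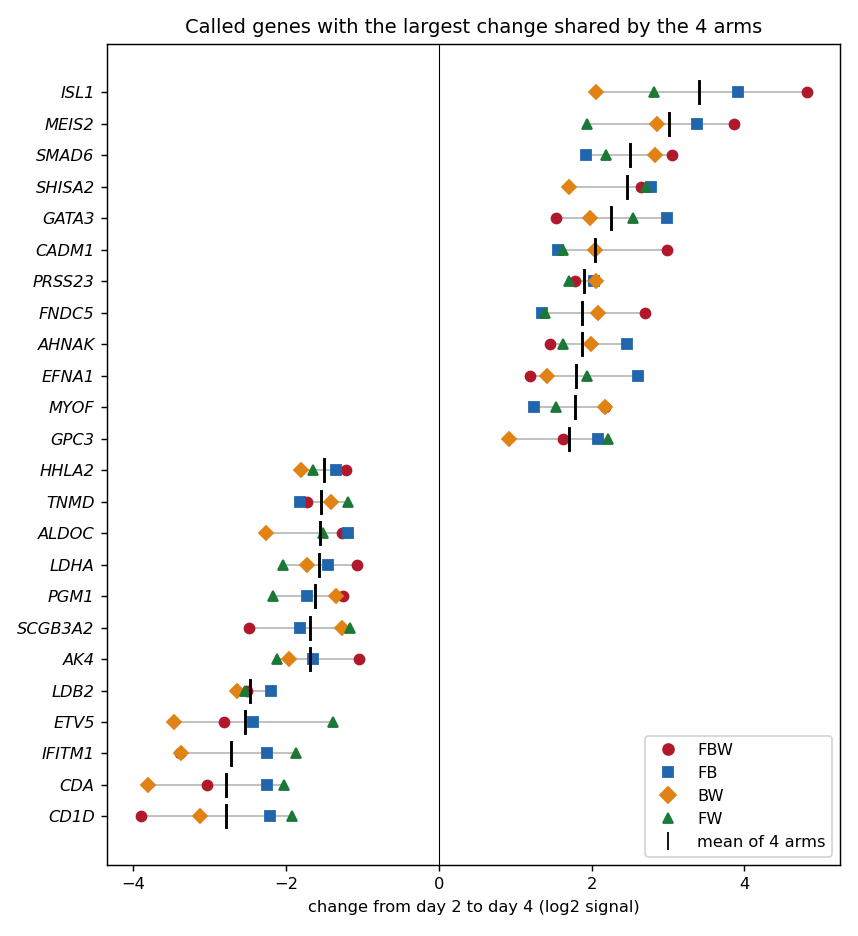
Change from day 2 to day 4 in log2 signal (x axis) for the 12 highest and 12 lowest genes called with the same sign in all 4 arms (y axis), with 1 symbol per arm, the range as a grey line and the mean as a black bar. No arm crosses 0, ISL1 spreads most widely over the arms, and LDB2 and PRSS23 lie close together.

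Some further genes that rose are described here. ACTA2 and KRT8 were named as called members of their lists, and the others were chosen after their values were seen. ACTA2, smooth muscle actin, read 6.32, 5.36, 5.82 and 5.55 and then 7.89, 6.35, 7.58 and 6.5, a rise of 1.32 ± 0.18 (adjusted p = 0.0468). The actin-bundling protein PALLD rose by 1.56 ± 0.2 and the sarcomere formin FHOD3 by 1.53 ± 0.21. SORBS2, an adaptor of the Z-disc, was detected in no arm on day 2 and in all on day 4, at least 1.8-fold higher (adjusted p = 0.047). The type IV collagen chains COL4A5 and COL4A6 rose by 0.94 ± 0.12 and 1.57 ± 0.17. KRT8, a keratin of simple epithelia, rose by 1.2 ± 0.16 (adjusted p = 0.0435).

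LDB2, a cofactor of LIM domain proteins, had the lowest p of all genes tested. It read 11.4, 9.41, 11.26 and 9.19 on day 2 and 8.9, 7.22, 8.62 and 6.65 on day 4. In every arm the fall was near the mean of 2.47 ± 0.11 (5.54-fold, adjusted p = 0.00428), and the spread over arms was 0.19 (SD). LDB2 is also the 1 gene that passed a test against a change of at least 2-fold. CD1D, an antigen-presenting molecule for lipids, read 10.64, 6.78, 9.34 and 6.5 and then 6.74, 4.57, 6.22 and 4.58, and fell by 2.79 ± 0.33. CDA, a cytidine deaminase, fell by 2.78 ± 0.3 and IFITM1, an interferon-induced membrane protein that embryonic stem cells carry, by 2.72 ± 0.28. IFITM1 read 11.99, 11.25, 13.1 and 11.4 and then 8.6, 9.0, 9.73 and 9.53, with no overlap. Smaller falls among those named for their size were 1.68 ± 0.23 for the secretoglobin SCGB3A2 and 1.54 ± 0.15 for the membrane protein TNMD. The checkpoint ligand HHLA2 was detected in all arms on day 2 and in none on day 4, at least 1.93-fold lower (adjusted p = 0.0291).

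The FGF and ERK genes were mostly lower. ETV5, an ETS factor that ERK signalling switches on, read 8.85, 7.62, 9.77 and 6.72 on day 2 and 6.03, 5.19, 6.29 and 5.33 on day 4. The days did not overlap, and ETV5 fell by 2.53 ± 0.32 (5.76-fold, adjusted p = 0.0416). Another detected probe of ETV5 differed by -1.27. Its relative ETV4 read 7.77, 7.51, 8.59 and 7.13 and then 4.45, 5.5, 5.45 and 6.16 but did not pass the test (adjusted p = 0.0658). FGFR3 went the other way. This FGF receptor read 9.5, 10.14, 9.67 and 10.3 and then 10.94, 11.82, 11.57 and 11.68, and rose by 1.6 ± 0.11 (adjusted p = 0.0228), while another probe of the gene differed by 0.15.

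Among the 22 genes of this list that were measured, of 29, ETV5 fell and FGFR3 rose. In all 4 arms 14 were lower and 1 higher (63.6% and 4.55%, against 16.6% and 14.5% of all genes). The median change was -0.67. FGF19 passed the filter through day 2 alone, and FGF17 would not have passed it on day 4, so these counts and the median are a description. The feedback inhibitor SPRY4 read 10.03, 8.65, 9.97 and 7.36 and then 5.69, 6.68, 6.64 and 7.39, so FW was level while the other arms were lower (adjusted p = 0.138). SPRY1 was lower in all 4 arms with no overlap (-1.29 ± 0.27, adjusted p = 0.0937). The ligand FGF17 was at 9.24, 6.74, 10.09 and 5.03 on day 2 and was detected on day 4 in BW alone, at 5.48 (adjusted p = 0.0954). The immediate early genes IER3 and FOS were lower in all 4 arms as well (adjusted p = 0.122 and 0.0954). Other genes were mixed over the arms. DUSP6 changed by 0.01, -1.43, -2.76 and 0.91, and the receptor FGFR1 by -0.79, 0.54, 0.29 and 0.73.

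Several genes of sugar breakdown fell. LDHA, which turns pyruvate into lactate, read 13.86, 12.82, 13.72 and 13.47 on day 2 and 12.79, 11.37, 11.99 and 11.43 on day 4. No day 4 value reached the day 2 range, and LDHA fell by 1.57 ± 0.15 (2.97-fold, adjusted p = 0.0291). The aldolase ALDOC read 10.75, 9.01, 10.47 and 9.72 and then 9.48, 7.83, 8.2 and 8.22, and fell by 1.56 ± 0.19 (adjusted p = 0.0416). The glucose transporter SLC2A1 fell by 1.21 ± 0.16 (adjusted p = 0.0457) and the enolase ENO1 by 0.72 ± 0.08 (adjusted p = 0.0333).

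Of the 25 genes on the glycolysis and hypoxia list 23 were measured, of which 4 fell and 0 rose. Of all genes tested 0.297% fell and 0.449% rose. The median change was -0.76, and 16 were lower in all 4 arms (69.6%, against 16.6% of all genes). Members that did not pass include PGK1 (-1.35, adjusted p = 0.0954), ALDOA (-1.02, adjusted p = 0.0824) and BNIP3, a hypoxia-induced mitophagy receptor (-1.96, adjusted p = 0.0523). VEGFA was higher in all 4 arms (0.99, adjusted p = 0.225), and ADM was higher in 3 (0.51, adjusted p = 0.382). Outside the list, PGM1, which links glycogen to glycolysis, read 12.4, 10.64, 12.42 and 11.1 and then 11.15, 8.91, 11.07 and 8.93. PGM1 fell by 1.62 ± 0.16 (adjusted p = 0.0291). The mitochondrial adenylate kinase AK4 fell by 1.69 ± 0.19 (adjusted p = 0.0333) and the hypoxia-induced protein FAM162A by 1.47 ± 0.19 (adjusted p = 0.0416).

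The promoters of LDHA, ALDOC and AK4 are shown for the core of the hypoxia response element, ACGTG, or its reverse complement CACGT, in capitals. Where these meet as CACGTG, a palindrome, both strands match at 1 place. The sequences come from the same RefSeq table and build, with LDHA on the plus strand at chr11:18394313-18394612, ALDOC on the minus strand at chr17:28576846-28577145 and AK4 on the plus strand at chr1:65147302-65147601. For LDHA and AK4, which have several windows in the table, the first is printed.
LDHA: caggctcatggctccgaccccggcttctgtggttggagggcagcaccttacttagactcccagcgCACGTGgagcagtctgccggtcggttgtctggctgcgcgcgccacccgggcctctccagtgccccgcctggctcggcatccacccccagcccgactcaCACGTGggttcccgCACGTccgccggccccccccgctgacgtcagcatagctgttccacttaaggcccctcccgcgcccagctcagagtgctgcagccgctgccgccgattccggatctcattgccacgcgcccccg
ALDOC: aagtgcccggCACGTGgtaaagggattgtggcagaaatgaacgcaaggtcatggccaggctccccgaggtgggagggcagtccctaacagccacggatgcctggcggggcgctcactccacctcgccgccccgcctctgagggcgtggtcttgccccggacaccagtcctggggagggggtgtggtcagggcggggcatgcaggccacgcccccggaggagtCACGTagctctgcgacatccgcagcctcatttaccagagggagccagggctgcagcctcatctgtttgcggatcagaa
AK4: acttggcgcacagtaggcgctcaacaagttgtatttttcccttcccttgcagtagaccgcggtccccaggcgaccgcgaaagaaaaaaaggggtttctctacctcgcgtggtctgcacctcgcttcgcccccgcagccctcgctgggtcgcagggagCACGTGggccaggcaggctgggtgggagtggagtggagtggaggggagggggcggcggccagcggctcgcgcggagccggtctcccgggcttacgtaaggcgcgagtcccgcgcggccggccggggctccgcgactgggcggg
LDHA holds the letters at 3 places, ALDOC at 2 and AK4 at 1. These 3 genes were likewise picked by no set rule. Each of the 16 list members lower in all 4 arms has an entry, and 11 of their 29 windows, some of which overlap, hold the motif (37.9%). The share over all 35116 windows is 21.4%. The windows of ENO1 and SLC2A1 have none.

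**Figure D3:**
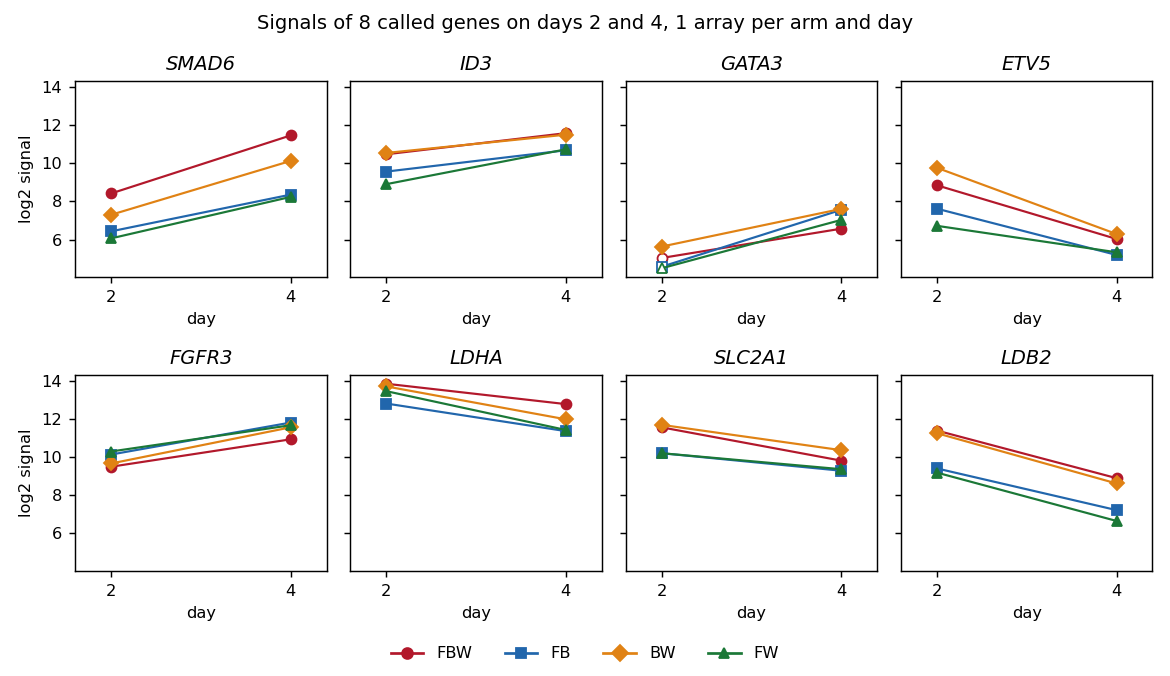
Normalised log2 signal (y axis) on days 2 and 4 (x axis) for 8 genes that passed the test, 1 line per arm and 1 array per point, with open symbols where the probe was not detected. SMAD6, ID3, GATA3 and FGFR3 rose and ETV5, LDHA, SLC2A1 and LDB2 fell in each of the 4 arms.

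Among the pluripotency genes 1 fell. DPPA4, a chromatin protein of pluripotent cells, read 10.48, 11.38, 11.52 and 11.71 and then 9.62, 10.41, 10.3 and 10.8, and fell by 0.99 ± 0.09 (1.99-fold, adjusted p = 0.0291). It was the single call among 19 measured members, 10 of which were lower in all 4 arms (52.6%, against 16.6% of all genes). DPPA2 passed the filter through day 2 alone, so this share and the list median are a description. The median change was -0.8, or -0.48 without FBW, where the detection filter was applied again to the arrays left and the members could differ. POU5F1 read 10.56, 11.13, 11.35 and 10.92 and then 7.43, 10.27, 8.98 and 10.28. It was lowest on day 4 in FBW and did not pass the test (-1.75 ± 0.43, adjusted p = 0.119). NANOG read 6.53, 9.51, 10.15 and 9.26 and then 4.57, 6.66, 5.77 and 8.23 (adjusted p = 0.0862). SOX2, which also marks neural cells, was at 4.31 in FBW on day 2, not detected, and at 9.43 or above in the other arms. It differed by 0.5 ± 0.23 (adjusted p = 0.285).

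Streak genes had the lowest list median, -1.75, with 0 of 15 measured members called by limma. Of these, 10 had an unadjusted p under 0.05, as 20.4% of all genes did. In all 4 arms 9 were lower (60%, against 16.6% of all genes). Any member that passed the detection filter through day 2 alone had to be lower on day 4, so the median and these counts are a description. EOMES, a T-box factor of streak and endoderm, read 12.42, 10.22, 12.14 and 7.08 and then 6.15, 5.63, 9.35 and 5.01. On day 2 FBW and BW were highest, and on day 4 BW (-3.93 ± 0.67, adjusted p = 0.0658). MIXL1 read 11.53, 8.22, 11.35 and 4.82 and then 5.13, 4.25, 5.57 and 4.34 (adjusted p = 0.103). MESP1, a marker of early cardiac mesoderm, read 12.21 in FBW and 8.07 in BW on day 2 and 7.06 and 9.12 on day 4, and was not detected in FB and FW on either day (adjusted p = 0.548). The median change of the list was -4.09 in FBW and -0.28 in FW.

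Cardiac genes were higher in most arms, but ISL1 was the single call among 20 measured members of the cardiac mesoderm list. The median change of the list was 0.69, or 1.29 without FBW and 1.17 without BW. The detection filter was applied again to the arrays left, so the members could differ. These medians therefore do not show what 1 arm contributes. HAND1, a factor of lateral and extraembryonic mesoderm, read 12.12, 5.57, 9.87 and 4.56 and then 12.73, 10.24, 13.28 and 8.59. The gain was small in FBW, where it was already high (3.18 ± 0.63, adjusted p = 0.0862). PDGFRA, a receptor of cardiac mesoderm, was higher in each arm (1.48 ± 0.32, adjusted p = 0.0954). NKX2-5, a core heart factor, was detected on 1 of the 8 arrays, FBW on day 4 at 5.87, and was not tested. Of 11 measured contraction genes 0 were called by limma, with 8 at an unadjusted p under 0.05, against 20.4% of all genes. MYH6 passed the filter through day 4 alone and MYL4 was detected on day 2 in FW alone, so this count is a description. Atrial myosin light chain MYL4 read 4.74, 4.91, 4.71 and 5.06 and then 11.72, 6.16, 8.57 and 5.59, highest in FBW (adjusted p = 0.176). MYH6, a cardiac myosin heavy chain, was detected in no arm on day 2 and in all on day 4, at least 3.12-fold higher (adjusted p = 0.137).

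The list of amnion and surface ectoderm genes, which also takes in trophoblast, had the highest median, 1.61, among lists with at least 5 measured members. ISL1, GATA3, GATA2 and KRT8 rose and 0 of 15 measured members fell, while 0.449% of all genes tested rose and 0.297% fell. In all 4 arms 9 were higher (60%, against 14.5% of all genes). GATA3 and GATA2 stand on the BMP list too and ISL1 on the cardiac list, so these counts are not independent, and the limit on GATA2 and GATA3 given there holds here. TFAP2A, a factor of surface ectoderm and amnion, read 7.05, 6.12, 9.46 and 5.52 and then 6.25, 10.93, 10.54 and 10.72, lower in FBW alone (adjusted p = 0.236). The mean log2 signal of the 4 amnion and surface ectoderm markers lay between 4.91 and 6.4 on day 2 and between 5.15 and 9.1 on day 4, and that of the 3 fibroblast markers between 5.06 and 5.54 and then between 5.83 and 8.32. The part of such cells in the rises above was not tested. In bulk RNA, fewer cells of a type and less RNA per cell cannot be told apart.

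In the other lists, APOB, an apolipoprotein of liver and yolk sac endoderm, was at least 1.46-fold higher (adjusted p = 0.0416). It was detected in no arm on day 2. It was the single call among 13 measured endoderm genes, and since it entered through day 4 alone this call had to be a rise. ACTA2 was the single call among 12 measured smooth muscle, fibroblast and epicardium genes, and GATA2, which also entered through day 4 alone, among 10 of endothelium and blood. The other 11 lists cover the NODAL pathway, presomitic mesoderm, neuroectoderm, HOX and CDX, cadherins, proliferation, stress response, sterol synthesis, retinoic acid, skeletal muscle, and Hedgehog and NOTCH. Among their 130 measured genes limma called 0, with 35 at an unadjusted p under 0.05. The 30 proliferation genes had a median change of -0.24, from -0.4 in FBW to 0.08 in FW.

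**Figure D4:**
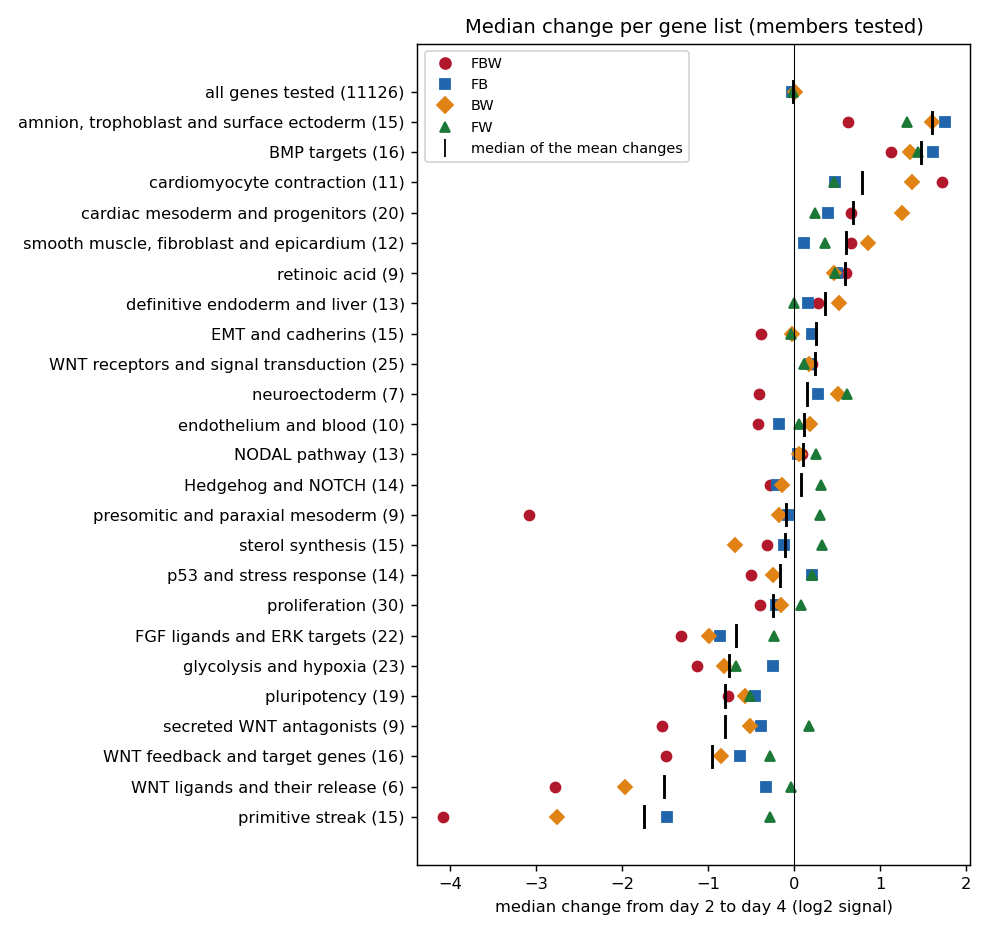
Median change from day 2 to day 4 in log2 signal (x axis) for each gene list with at least 5 measured members (y axis, number of members in brackets), with 1 symbol per arm and a black bar for the median of the 4-arm means. All genes tested sit at -0.01, the amnion list at 1.61, the BMP targets at 1.48 and the streak list at -1.75, where the arms are widely spread.

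The amount of change differed between arms. At least 2-fold higher signals were found for 631, 219, 443 and 210 genes and at least 2-fold lower signals for 664, 153, 372 and 156. The SD of the change over all genes tested was 0.82, 0.45, 0.62 and 0.44. With 1 array a day in each arm these counts have no test. Changes of 2-fold or more were shared by all 4 arms for 33 genes upward and 27 downward, and 77 genes were 2-fold higher in 1 arm and 2-fold lower in another.

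Because FBW and BW received both BMP4 and the WNT activator and FB and FW only 1 of them, the change was compared between these pairs of arms. It differed for 4 genes, 0.036% of those tested, with 2 (0.018%) in each direction, and 1306 had an unadjusted p under 0.05. CFC1, a NODAL co-receptor, read 5.26, 4.61, 4.43 and 4.45 on day 2 and 11.12, 5.39, 10.1 and 4.7 on day 4. Its change was greater in FBW and BW by 5.24 ± 0.29 (adjusted p = 0.025). CFC1 was detected in FBW on both days, in BW and FB on day 4 alone and in FW on neither. FBW and BW, where it is high, took it past the filter, so its call is a description and gives no support. The gene has a near-identical copy, CFC1B, and the probe's signal may hold both. The iron exporter SLC40A1 read 5.43, 4.67, 4.58 and 4.44 and then 10.06, 4.79, 8.71 and 4.43. It was detected on 3 arrays, all of FBW or BW, and so entered the test only through the pair where it is high. Its call is therefore a description and gives no support.

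LYPD1, a membrane-anchored protein of the LY6 family, went opposite ways in the pairs. It read 6.79, 5.63, 7.28 and 5.79 and then 5.09, 7.48, 5.47 and 7.71, lower in FBW and BW and higher in FB and FW (-3.64 ± 0.23, adjusted p = 0.025). GRHL3, a grainyhead factor of surface ectoderm, read 4.38, 5.0, 6.9 and 4.62 and then 4.96, 8.84, 7.5 and 8.56. Its change was smaller in FBW and BW (-3.3 ± 0.23, adjusted p = 0.0309). GRHL3 was detected in FB and BW on both days, in FW on day 4 alone and in FBW on neither. The arrays of FBW and BW would not have taken it past the filter, while those of FB and FW did. The call of GRHL3 is therefore a description too and gives no support. The genes next in line did not pass. They were HTRA1, NCAM1 and LHFPL2, with signed differences above 0, and AMER2, HESX1 and ENTREP1, with signed differences below 0 (adjusted p from 0.0545 to 0.0576). AMER2 and HESX1 were higher on day 4 mainly in FB and FW, while ENTREP1 was lower in FBW and BW, by 2.56 on average. With 2 arms in each pair, leaving out FBW or BW gave 529 or 1389 calls, with the lone arm assumed to vary like the others, and leaving out FB or FW gave 0.

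**Figure D5:**
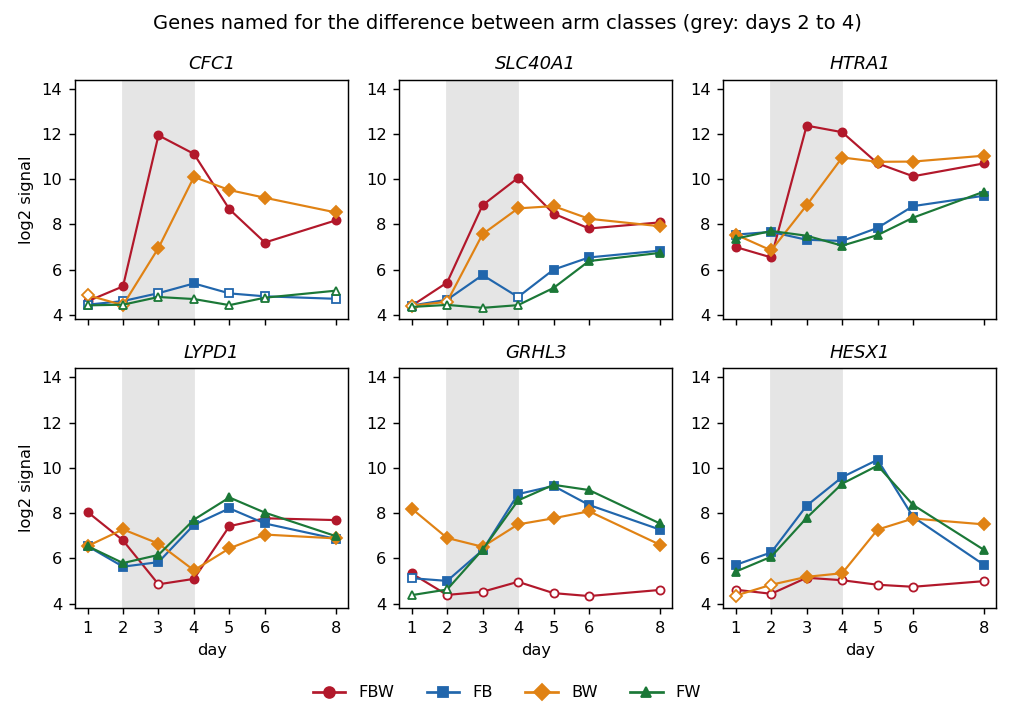
Normalised log2 signal (y axis) of 6 genes by day (x axis, days 1 to 8), 1 array per point and 1 line per arm, with days 2 to 4 in grey and open symbols where the probe was not detected. CFC1, SLC40A1, LYPD1 and GRHL3 passed the test of the difference between FBW with BW and FB with FW, and HTRA1 and HESX1 did not.

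Within the 2 days, the mean over arms moved in the called direction both from day 2 to day 3 and from day 3 to day 4 for all 83 genes. The step from day 2 to day 3 was the larger for 61 of them, 32 of the 50 that rose and 29 of the 33 that fell. No such count was made over all genes tested, so these numbers describe the called genes alone. The FBW array of day 3, like that of day 6, is shared with another series, and the labels do not say whether it came from the same differentiation. HHLA2 moved by -1.31 and then by -0.19, FZD8 by 1.4 and then 0.04, and LDHA by -1.19 and then -0.39. GATA3 and GATA2 moved more in the second step, by 1.41 and 1.09.

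The next interval of the same length, day 6 against day 4, gave 25 calls (19 up, 6 down), 0.222%, 0.169% and 0.0533% of the 11250 genes tested. The 2 intervals share the day 4 arrays, so their changes are set side by side only. PRSS23 rose by 1.9 and then by 2, BAMBI by 1.39 and then by 1.04, and ACTA2 by 1.32 and then by 4.29. POU5F1, with -1.75 in the first, fell by 2 ± 0.2 in the second (adjusted p = 0.0359). ETV5, which fell by 2.53, differed afterwards by 1.86 (adjusted p = 0.0837), and AXIN2 by -0.22 (adjusted p = 0.403). Means of SMAD6 were level from day 4 to day 6 (-0.07, adjusted p = 0.87). A test of the first change against the second over 12 arrays called 0 of 11781 genes (0%) by limma, with 1041 at an unadjusted p under 0.05 and a lowest adjusted p of 0.171, which ETV5, SLC2A1 and SMAD6 had among others.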

How the data were processed

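Total RNA from HuES6 cells was hybridised to Illumina bead arrays, 1 per arm and day. The deposited table holds linear signal intensity per probe, not corrected for background, and a detection p-value beside each. The submitters' processing notes name GenomeStudio, with no version stated. The authors' processed table, also an intensity, has the same median (6.88) on all arrays; the sources used here do not describe how it was normalised, and it served as an alternative. From the deposited intensities, log2 signals were computed by neqc in limma (version 3.58.1 under R 4.3.3), with an offset of 16 and negative controls inferred from the detection p-value.

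Each gene stands for its brightest probe by the mean of all 29 arrays; 30113 probes have 1 symbol, 8 several and 17202 none, and the latter kinds were left out. Genes detected (p under 0.01) on at least 3 arrays of a fit were tested with lmFit and eBayes with a trend, with arm as a block, and called at a Benjamini-Hochberg adjusted p under 0.05 over all genes tested. The day 4 against day 2 fit has 3 residual degrees of freedom and 3.1 prior ones. Arms are paired because each is 1 treatment followed over days, and the labels give the arm. The difference between pairs of arms was the interaction with day, and the 2 intervals were compared as a contrast over 12 arrays. The fits were tested on simulated data. No comparison mixes the tables.

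The members and the 26 gene lists (487 of 520 genes have a probe) were chosen with earlier results of these data known. Genes named are the 12 highest and 12 lowest called with 1 sign in all arms and detected on at least 3 of the 4 arrays of the higher day, the 8 lowest p-values, up to 4 called members per list, all measured WNT targets, ligands and antagonists, the called arm-pair differences with the 5 lowest p-values each way, and 12 always-named genes. Other genes were named after their values were seen. Of the 83 genes called, 23 have another detected probe, 0 of them with the opposite sign. Alternatives were another normalisation, the authors' table, other detection filters, each arm left out, no block, another probe choice, array weights, a spread from 28 arrays and a 2-fold threshold. Promoters were searched for exact motif matches on both strands.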

Additional observations from a re-analysis of the deposited data

Results flagged for a closer look

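SHISA2 changed less in BW than in the other arms. The change from day 2 to day 4 was 1.7 in BW and between 2.65 and 2.78 in FBW, FB and FW, so that BW lay far from the rest by Dixon's criterion for 4 values. Among 48 genes looked at in this way it was the only one, and chance alone places about 1 in 20 groups there.

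For 4 genes the change differed between the arms with both BMP4 and the WNT activator and the arms with 1 of them, by the limma interaction at a Benjamini-Hochberg adjusted p under 0.05. The difference of the changes was 5.24 for CFC1, 4.33 for SLC40A1, -3.64 for LYPD1 and -3.3 for GRHL3. CFC1 and SLC40A1 were detected on day 2 in FBW alone. SLC40A1 was not detected in FB or FW on either day, and CFC1 was detected there only in FB on day 4. Both passed the filter through the arms where they are high, which makes their values a description. GRHL3 was not detected in FBW on either day and passed the filter through FB and FW, where its change is high. Its value is a description as well. LYPD1 was lower on day 4 in FBW and BW, and higher in FB and FW.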

How the results depend on the processing

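The count of 83 calls of day 4 against day 2 moved under most alternatives. Direction was kept for all 83 genes, but leaving out an arm or the pairing could not have turned it, since all had the same sign in the 4 arms. The fit with no replicate block (arms as plain repeats) gave 0 calls with 1268 genes at an unadjusted p under 0.05, quantile normalisation gave 23, no filter on dim probes 54, detection on all arrays of at least 1 day 151, array weights 419, a spread from all 28 arrays 506 and the 2-fold threshold 1. With that spread 46% of calls were higher on day 4, against 50 of 83 in the main result. Leaving out 1 arm gave between 0 and 185 calls (FBW 185, FB 1, BW 2, FW 0). The authors' table gave 100 and another probe choice 83. For the difference between pairs of arms (4 calls), no filter gave 0, the stricter detection 1, array weights 37, and leaving out 1 arm between 0 and 1389. For day 6 against day 4 (25 calls), no block gave 4, quantile normalisation 2, the stricter detection 65, array weights 1345, and leaving out 1 arm between 0 and 199. For the comparison of the intervals (0 calls), array weights gave 85 and leaving out 1 arm between 0 and 10. The fit without pairing gave 0 there as well. Signs turned for 6 of the genes named, all with mean differences that did not pass. Leaving out 1 arm gave from -0.05 (without FW) to 0.71 for FZD7, from -0.08 (without FBW; -0.04 without BW) to 0.12 for LEF1, from -0.5 to 0.39 (without FBW) for WNT5A, from -0.13 to 0.03 (without FB) for SOSTDC1, from -0.16 (without FB; -0.04 without FW) to 0.68 for DKK3 and from -0.55 (without FW; -0.53 without FB) to 0.69 for LYPD1. LEF1 also gave -0.06 in the authors' table and -0.05 with array weights, and WNT5A gave 0.12 with array weights. Over the genes named, 774 values kept direction and side of the threshold, 220 lost the call, 25 gained it and 12 turned. Of the list medians 246 moved by less than the spread between arms and 40 by more. With an arm left out, the detection filter was applied again to the arrays left. The members of a list could then differ from those of the main fit, so these medians do not show what 1 arm contributes. Leaving out 1 arm, the medians ran from -1.04 to -0.66 for WNT targets, -0.9 to -0.48 for pluripotency, -2.58 to -2.17 for the streak, 0.63 to 1.29 for cardiac mesoderm, 1.58 to 1.76 for amnion and surface ectoderm, 1.39 to 1.48 for BMP targets, -0.84 to -0.6 for FGF and ERK genes, -0.91 to -0.63 for glycolysis and hypoxia and 0.17 to 0.28 for WNT receptors. Quantile normalisation gave 0.94 for amnion and surface ectoderm, 1.03 for BMP targets, 0.16 for WNT receptors and -0.45 for pluripotency, array weights gave -0.57 for pluripotency, and the stricter detection gave 1.27 for cardiac mesoderm. The medians of the lists for WNT ligands, HOX and CDX, endothelium and blood, cadherins, NODAL, skeletal muscle, and Hedgehog and NOTCH changed sign under at least 1 alternative. The cause of these changes was not tested. Signals near background limit what can be said of genes detected on 1 day alone, since background correction sets their size.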
